A study of Mus musculus with 24 samples.

Results

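The 8 genes described here encode plasma membrane carriers for glucose, monocarboxylates and amino acids: Slc2a1, Slc2a3, Slc16a1, Slc6a9, Slc7a5, Slc3a2, Slc7a6 and Slc38a2. They were chosen by name, and all 8 were found, each in a single row, among the 16572 gene names of the RNA-seq table. The study grew oocytes of mice that the labels call C57BL/6 Barb, taken from ovaries at 7 days of age. The culture was without follicles, with theca-like cells in the dish at first. The study's methods describe a cross of the C57 Black6 and SV129 backgrounds, and its text F1 females of a C57BL6/Babr background. Class IV oocytes were collected after 9 days under 5% O2 (IV 5% O2, medium renewed every 24 hours) or after 14 days under 20% O2 (IV 20% O2, medium renewed every 48 hours). The labels give oxygen as the only treatment of these samples and a size of 60 to 70 µm for both conditions, whereas the study's text gives that range for 5% O2 only and a smaller one for 20% O2. Each condition had 2 libraries, but the table holds 1 combined value per gene and condition. The conditions therefore differed in culture time, medium renewal and, by the study's text, oocyte size as well as in oxygen, and these cannot be told apart. With single values, no difference could be set against a spread between replicates, and no test was made.

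A growing oocyte takes up little glucose itself and depends on pyruvate and amino acids, many of which reach it through gap junctions from the surrounding granulosa cells. In this culture few granulosa cells stay attached to the oocyte. Glucose enters cells by facilitated diffusion through GLUT carriers of the SLC2 family. Lactate and pyruvate cross with a proton through monocarboxylate carriers of the SLC16 family, which need the glycoproteins basigin or embigin to reach the membrane. Amino acid carriers are more diverse: some are driven by sodium, and the heteromeric exchangers pair a light chain of the SLC7 family, which moves the amino acid, with a heavy chain, usually Slc3a2, which carries the pair to the surface.

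With the deposited log2 undone, whole reads within 0.02 of a read were found for 99.3% of rows with reads in IV 5% O2 and for 99.96% in IV 20% O2. Levels are given as RPM, in which the reads of a gene are scaled by the depth that the step of its column implies, with no correction for gene length. This depth was 132185248 reads in IV 5% O2 and 40875358 reads in IV 20% O2. It exceeds the reads on the genes of the table, 109629353 and 29754908, so the levels of all genes sum to 828571 RPM in IV 5% O2 and to a lower 726899 RPM in IV 20% O2. For a gene without reads the upper limit of 3 reads is 0.0227 and 0.0734 RPM. The interval given with each ratio is the exact 95% Clopper-Pearson interval. Reads have no molecular identifiers, so the intervals cover counting error only and compare these libraries, not the conditions. The study sequenced paired ends, and whether the mates of a pair were counted apart is not given in the sources used here. If they were, the intervals are too narrow even for counting error. The labelled cell type was borne out by its markers: all 12 oocyte markers looked up were in the table, with a summed level of 9986 RPM under 5% O2 and 13739 RPM under 20% O2. Of these, 3 (Zp2, Zp3 and Kit) were at least 2-fold lower in IV 5% O2, 0 were higher and 11 lay below the median gene. Of all genes in the table, 10437 of 16572 had a higher level in IV 5% O2. Among those tested, whose mean reached 1 RPM, 18.7% were at least 2-fold higher and 9.22% at least 2-fold lower. Of 17 theca and stroma markers, 12 were in the table and 11 of these had a higher level in IV 5% O2. The 12 summed to 56.0 RPM under 5% O2 and 19.2 RPM under 20% O2. Of the 9 tested, 6 were at least 2-fold higher, but Cyp11a1, Hsd3b1, Postn, Dcn and Vim passed the filter only through IV 5% O2. Their levels in IV 20% O2 were 0.122, 0.489, 0.367, 0 and 0 RPM. Col1a2 had no reads in IV 20% O2 either. Of 11 granulosa markers, 6 were in the table and 5 of these were higher in IV 5% O2, summing to 41.3 and 29.8 RPM, with Fshr at 0 in IV 5% O2 and Inha at 0 in IV 20% O2. The macrophage markers (3 of 7 in the table) summed to 17.9 and 21.1 RPM; Csf1r was lower in IV 5% O2 (9.28 against 15.0 RPM), while Cd68 and Lyz2, the latter at 0 in IV 20% O2, were higher. The endothelial markers (4 of 6) summed to 117 and 284 RPM because of Vwf (55.5 against 248 RPM), while Pecam1, Tek and Kdr, the last at 0 in IV 20% O2, were higher in IV 5% O2. The single erythroid marker in the table, Alas2, had 1.32 and 1.57 RPM. The part of these cells in the transporter values was not tested, and fewer cells of a type cannot be told apart from less RNA per cell.

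The transporters moved in opposite directions between the conditions. Slc2a1 was at least 2-fold higher in IV 5% O2, Slc38a2 and Slc7a6 were at least 2-fold lower, and the other 5 differed by less than 2-fold on log2(RPM + 1). Of the 14704 genes whose mean reached 1 RPM, all 8 transporters among them, 18.7% were at least 2-fold higher in IV 5% O2, 9.22% at least 2-fold lower and 27.9% apart in either direction. With 1 of 8 higher and 2 of 8 lower, the counts of transporters are too small to be set apart from these shares. Their median log2 difference, IV 5% O2 minus IV 20% O2, was -0.09, against 0.26 for all genes tested. It was -0.36 after median-ratio scaling and -0.35 after quantile normalization, where the median of all genes was -0.04 and 0.06. Its sign turned, to 0.12, at a minimum mean of 5 or 10 RPM and on division by exonic length, each of which leaves out Slc2a3 and Slc7a6. Since the typical gene was already 0.26 higher in IV 5% O2, differences are also given relative to it. The split of all genes apart depended on the scaling, with 67.0% of them higher in IV 5% O2 as deposited, 45.6% after median-ratio scaling and 48.6% after quantile normalization.

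The promoters of the transporters at least 2-fold apart are shown to let the sequence at the start of these genes be read beside their values. RefSeq gives promoter sequences on GRCm38.p6, the build of the table, for 6 of the 8 genes; Slc2a3 and Slc7a5 are not among them. Each covers 250 bases before a listed promoter start and 50 bases from it. Such a start need not be the gene bound given below, and for Slc2a1 it lies inside the gene. Capitals mark matches, on either strand, to ACGTG or GCGTG, the core letters bound by hypoxia-inducible factors; CACGTG, an E-box, holds ACGTG on both strands and was searched as well, as was TGATGNAAN, the composite element bound by ATF4 with C/EBP factors when amino acids are scarce.
Slc2a1 (chr4:119108495-119108794, plus strand): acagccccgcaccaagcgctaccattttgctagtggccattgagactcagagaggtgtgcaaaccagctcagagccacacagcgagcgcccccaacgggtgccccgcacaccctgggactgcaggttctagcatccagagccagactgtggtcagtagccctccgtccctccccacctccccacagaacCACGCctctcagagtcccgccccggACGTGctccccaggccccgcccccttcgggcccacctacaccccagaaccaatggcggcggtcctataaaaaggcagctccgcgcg
Slc7a6 (chr8:106168604-106168903, plus strand, the first of 2 overlapping starts): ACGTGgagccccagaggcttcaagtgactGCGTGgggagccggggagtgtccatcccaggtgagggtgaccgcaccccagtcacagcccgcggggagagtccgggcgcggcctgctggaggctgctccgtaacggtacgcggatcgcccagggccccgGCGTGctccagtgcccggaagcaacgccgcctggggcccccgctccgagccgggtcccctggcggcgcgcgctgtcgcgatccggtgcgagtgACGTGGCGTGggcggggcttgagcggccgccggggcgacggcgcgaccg
Slc38a2 (chr15:96699679-96699978, minus strand): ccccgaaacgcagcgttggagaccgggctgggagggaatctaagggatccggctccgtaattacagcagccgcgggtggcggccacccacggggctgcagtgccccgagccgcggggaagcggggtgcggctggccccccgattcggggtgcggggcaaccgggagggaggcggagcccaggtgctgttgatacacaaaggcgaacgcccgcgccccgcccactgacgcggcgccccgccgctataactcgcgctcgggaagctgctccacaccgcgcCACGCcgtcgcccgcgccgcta
The Slc2a1 window holds 1 ACGTG, which begins 36 bases before the promoter start of the window, and 1 GCGTG on the other strand. The Slc7a6 window shown holds 2 ACGTG and 3 GCGTG, a pair of them side by side just after its start. At the second Slc7a6 start the window holds 1 ACGTG and 2 GCGTG, and the same pair begins 66 bases before that start. The Slc38a2 window holds 0 ACGTG and 1 GCGTG. These letters are common: of 32851 promoters of the same length, 19.6% hold ACGTG, 32.4% hold GCGTG and 43.8% hold one or the other. Of the 6, only Slc16a1 has the E-box in its window, which 7.15% of promoters hold. None of the windows of the 6 holds TGATGNAAN, which 3.95% of promoters do. The start used in these oocytes is not given by the table, and a match is a string of letters in this window and not a measured site. Sequence outside these windows, such as introns or bases farther before the start, was not searched, so an element there would be missed.

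Slc2a1 encodes GLUT1, the widespread glucose carrier of growing cells, on chromosome 4, GRCm38, positions 119108711 to 119137983, with 10 exons in its longest coding transcript. It measured 57.5 RPM (7596 reads) under 5% O2 and 22.4 RPM (916 reads) under 20% O2. The IV 5% O2 level was thus 2.56 times that of IV 20% O2 (interval 2.39 to 2.75). Its log2 difference of 1.32, or 1.06 relative to the median gene, was above that of 89.3% of genes tested. Median-ratio scaling lowered it to 1.01, so the 2-fold mark was barely kept there, and quantile normalization gave 1.15. Gm12868, a gene on the other strand that covers 2.99% of the Slc2a1 exons, had 819 and 95 reads, fewer than Slc2a1 in both columns. Slc2a3 encodes GLUT3, a carrier of high affinity known from neurons and the early embryo, and lies on chromosome 6 from 122727809 to 122801640. Its level was low in both conditions, at 2.25 RPM (298 reads) under 5% O2 and 2.18 RPM (89 reads) under 20% O2. The ratio of 1.04 had an interval of 0.815 to 1.33 that spans 1, so no difference was detectable at this depth. Its log2 difference of 0.03 became -0.19 after median-ratio scaling and -0.24 after quantile normalization. Per kb of exon, the level of Slc2a1 was 52.7 times that of Slc2a3 in IV 5% O2 and 21.3 times in IV 20% O2; divided by the longest coding transcript, it was 31.0 and 12.5 times.

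Slc16a1 encodes MCT1, which carries lactate, pyruvate and ketone bodies in either direction, and lies on chromosome 3 from 104638668 to 104658462. It measured 148 RPM (19628 reads) under 5% O2 and 107 RPM (4384 reads) under 20% O2, a ratio of 1.38 (interval 1.34 to 1.43). The log2 difference of 0.47 was 0.21 above the median gene and remained positive with median-ratio scaling, at 0.15, and with quantile normalization, at 0.28. Its partner Bsg (basigin) was nearly level on the deposited scale, with 91.0 RPM under 5% O2 and 85.0 RPM under 20% O2, a log2 difference of 0.10 that was -0.16 relative to the median gene. Emb, which encodes embigin, the other partner, had 28.7 RPM under 5% O2 and 9.61 RPM under 20% O2 and was 2.98 times as high in IV 5% O2 (interval 2.69 to 3.32), with 9.93% of its exons shared with Gm17509 on the other strand. Per kb of exon the level of Slc16a1 was 0.669 times that of Bsg in IV 5% O2 and 0.517 times in IV 20% O2, whereas it was 8.08 and 17.4 times that of Emb.

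Among the heteromeric exchangers, the heavy chain Slc3a2 was higher and the light chains Slc7a5 and Slc7a6 were lower in IV 5% O2. Slc3a2, the heavy chain 4F2hc (CD98), lies on chromosome 19 from 8706882 to 8723369 and measured 252 RPM (33282 reads) under 5% O2 and 168 RPM (6861 reads) under 20% O2. It was 1.50 times as high in IV 5% O2 (interval 1.46 to 1.54), with a log2 difference of 0.58, or 0.32 relative to the median gene. Its light chain Slc7a5 encodes LAT1, which brings in leucine and other large neutral amino acids in exchange for glutamine, on chromosome 8 from 121881150 to 121907694. Slc7a5 measured 60.3 RPM (7966 reads) under 5% O2 and 90.3 RPM (3690 reads) under 20% O2. It was 1.50 times as high in IV 20% O2 (interval 1.44 to 1.56), the opposite direction to its heavy chain, with a log2 difference of -0.58, or -0.83 relative to the median gene. Slc7a6 encodes y+LAT2, a light chain that exports arginine against glutamine, on chromosome 8 from 106168857 to 106198706. It was low in both conditions, at 2.29 RPM (303 reads) under 5% O2 and 5.70 RPM (233 reads) under 20% O2, and was 2.49 times as high in IV 20% O2 (interval 2.09 to 2.96). Its log2 difference of -1.03 lay just past the 2-fold mark and was -0.55 with a pseudocount of 5 RPM, which no longer passed it. Per kb of exon, the heavy chain was at 4.26 times the sum of both light chains in IV 5% O2 and at 1.86 times in IV 20% O2. Divided by the longest coding transcript in place of all exons, these ratios were 5.04 and 2.19. Over all light chains of Slc3a2 in the table (Slc7a5, Slc7a6, Slc7a7, Slc7a8 and Slc7a11), a sum chosen after seeing the data, the ratios per kb of exon were 1.64 and 0.823. On this scale the heavy chain was below the sum of its light chains in IV 20% O2. This sum was not computed with the longest coding transcript, so whether that order depends on the length used was not tested. At Slc3a2, exon windows found more than once in the genome made up 4.42% of those of 50 bases and 3.33% of those of 100 bases. At Slc7a5 and Slc7a6 there were none.

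The sodium-driven carriers were Slc6a9 and Slc38a2. Slc6a9 encodes GLYT1, the glycine carrier by which oocytes and early embryos adjust their volume, and lies on chromosome 4 from 117834506 to 117875198. It measured 238 RPM (31428 reads) under 5% O2 and 278 RPM (11359 reads) under 20% O2, and was 1.17 times as high in IV 20% O2 (interval 1.14 to 1.19). Its log2 difference of -0.22 was -0.48 relative to the median gene. Exons of B4galt2, Ccdc24 and Gm17114 on the other strand cover 30.2% of the Slc6a9 exons. The libraries were strand-specific, but whether the counting used strand is not given in the sources used here, and without it the reads of such genes cannot be told apart. Per kb of exon, against 46.2 and 54.1 RPM for Slc6a9 under 5% and 20% O2, B4galt2 stood at 11.6 and 13.2 RPM, Ccdc24 at 17.5 and 15.0 RPM and Gm17114 at 31.4 and 34.2 RPM. Slc38a2 encodes SNAT2, which brings in small neutral amino acids such as alanine and glutamine and is known to be induced when amino acids are withdrawn; it lies on chromosome 15 from 96687392 to 96699730. It measured 34.2 RPM (4525 reads) under 5% O2 and 142 RPM (5808 reads) under 20% O2, so that the shallower column held more of its reads. Slc38a2 was 4.15 times as high in IV 20% O2 (interval 3.99 to 4.32). The log2 difference of -2.02, or -2.28 relative to the median gene, was the largest of the 8 in size, and 2.54% of genes tested had a lower value. It was -2.34 after median-ratio scaling and -2.21 after quantile normalization, and a pseudocount of 5 RPM gave -1.91. No exon window searched is repeated in the genome, and no other annotated gene shares its exons.

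**Figure D1:**
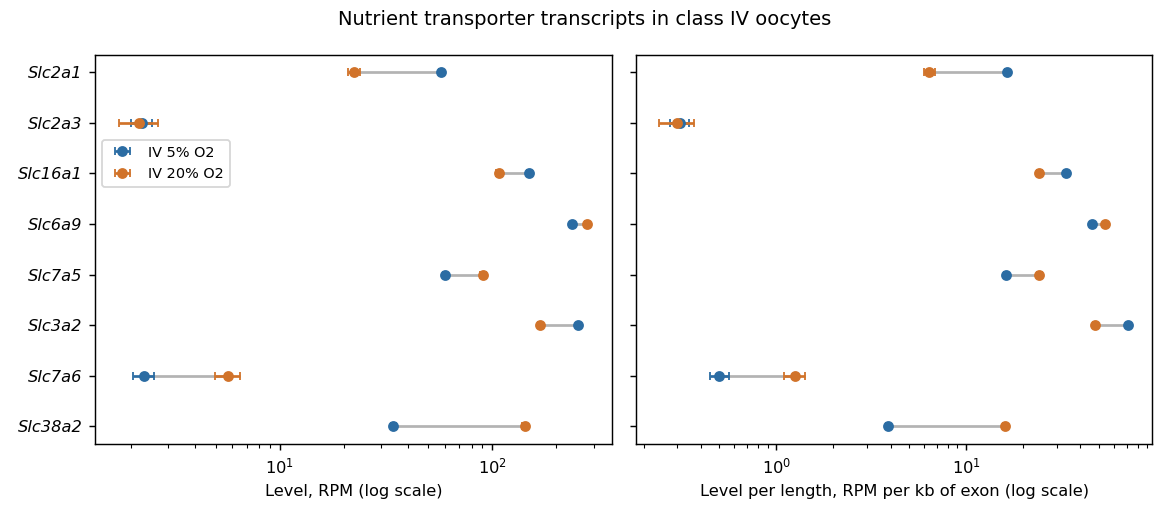
Level of each transporter in IV 5% O2 (blue) and IV 20% O2 (orange), as RPM on the left and as RPM per kb of exon on the right, on log axes, with exact 95% Poisson intervals of the reads as bars (where wider than the point). Slc2a1 stood at 57.5 against 22.4 RPM and Slc38a2 at 34.2 against 142 RPM, while the points of Slc2a3 lay on each other.

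Levels can be compared between genes only per length, and on that scale the order of the transporters differed between the conditions. In IV 20% O2, Slc6a9 led with 54.1 RPM per kb of exon, followed by Slc3a2 with 47.6, Slc7a5 with 24.3, Slc16a1 with 24.2, Slc38a2 with 16.1, Slc2a1 with 6.39, Slc7a6 with 1.25 and Slc2a3 with 0.301. In IV 5% O2, Slc3a2 led with 71.3 RPM per kb of exon, followed by Slc6a9 with 46.2, Slc16a1 with 33.5, Slc2a1 with 16.4, Slc7a5 with 16.3, Slc38a2 with 3.87, Slc7a6 with 0.502 and Slc2a3 with 0.311. The counting intervals of neighbours overlapped for Slc7a5 and Slc16a1 in IV 20% O2 and for Slc2a1 and Slc7a5 in IV 5% O2, so these pairs were not separated; the spread between replicates is not known for any pair. Slc2a1 thus ranked 6 in IV 20% O2 and 4 or 5 in IV 5% O2, where it was not separated from Slc7a5. Slc38a2 went from rank 5 in IV 20% O2 to rank 6 in IV 5% O2. Divided by the longest coding transcript, Slc38a2 was the third in IV 20% O2 with 30.5 RPM per kb, ahead of Slc7a5 with 25.7 and Slc16a1 with 24.2, and the order in IV 5% O2 was the same as per kb of exon. Of the summed level per kb of the 8 genes, Slc2a1 made up 8.70% in IV 5% O2 and 3.67% in IV 20% O2, and Slc38a2 2.06% and 9.23%. In level per kb in IV 5% O2, Slc3a2 and Slc6a9 were above 97.0% and 93.9% of genes tested, while Slc2a3 was above 5.23%.

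**Figure D2:**
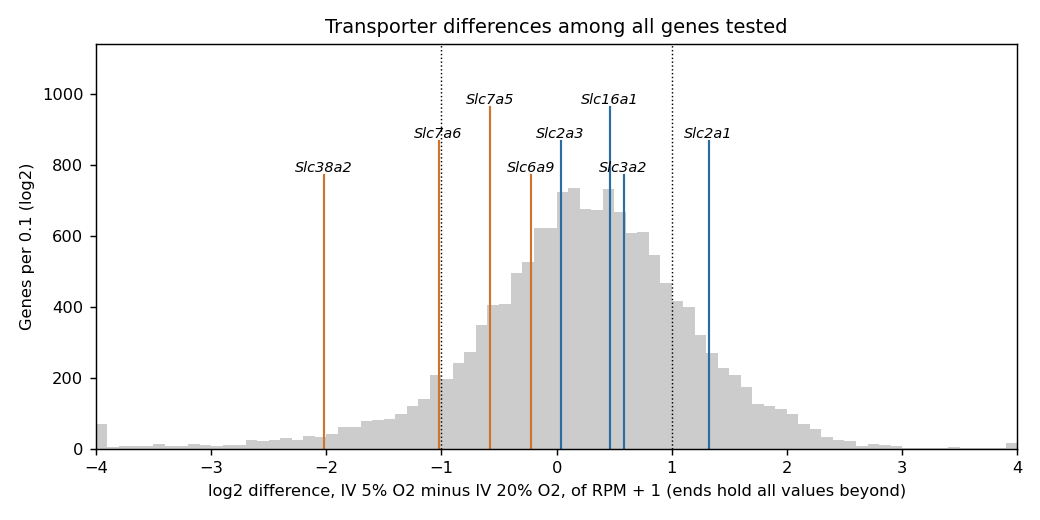
Number of genes by log2 difference of RPM + 1, IV 5% O2 minus IV 20% O2, over the 14704 genes tested (grey), with a line for each transporter, blue where higher and orange where lower in IV 5% O2; dotted lines mark 2-fold. Slc38a2 at -2.02 lay in the lower tail and Slc2a1 at 1.32 in the upper shoulder, with 5 of the 8 below the median gene at 0.26.

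Under each alternative scaling and pseudocount, Slc2a1, Slc16a1 and Slc3a2 were above the median gene and Slc6a9, Slc7a5 and Slc38a2 below it. Slc2a3 and Slc7a6 were below it wherever they were tested, and a minimum mean of 5 RPM or of 10 RPM, or division by exonic length, left both out. Slc2a3 was the only transporter whose log2 difference changed sign.

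**Figure D3:**
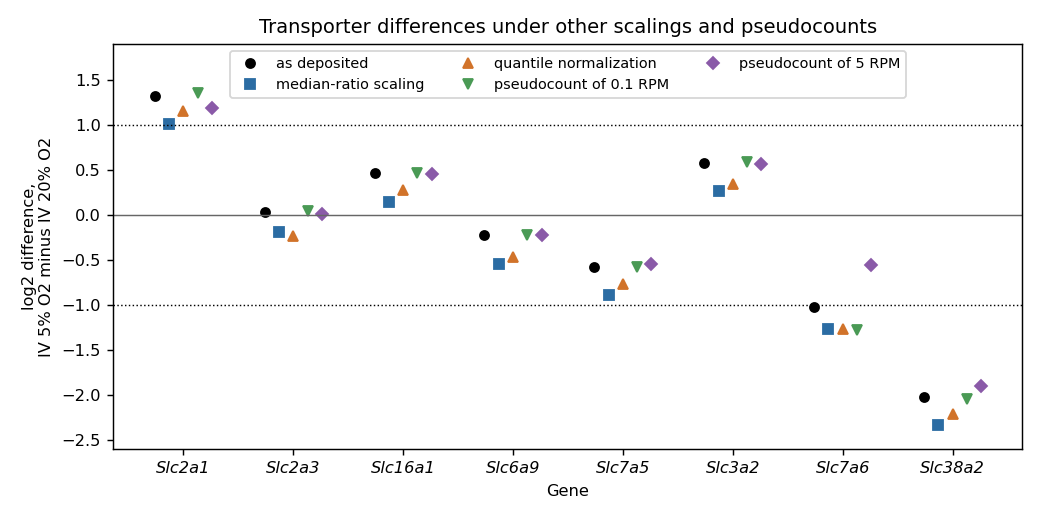
Log2 difference of each transporter, IV 5% O2 minus IV 20% O2, as deposited with a pseudocount of 1 RPM, after 2 other scalings and with other pseudocounts; the solid line is 0 and dotted lines mark 2-fold. Slc2a1 ranged from 1.01 to 1.35 and Slc38a2 from -2.34 to -1.91, while Slc2a3 crossed 0 and Slc7a6 crossed the lower 2-fold mark at a pseudocount of 5 RPM.

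In the wider families, listed by name, the median glucose carrier lay above the median gene and the median amino acid carrier below it under every alternative run. The glucose median rested on only 4 genes at a minimum mean of 5 RPM and on division by exonic length. At 10 RPM it rested on 2, Slc2a1 and Slc2a12, while 20 amino acid carriers remained. Of 15 genes of glucose carriers, 8 were in the table and 7 tested; 3 were at least 2-fold higher in IV 5% O2 and 0 lower, beside 18.7% and 9.22% of all genes, with a median log2 difference of 0.83. Slc2a9, known as a urate carrier, had the largest difference of the family, at 7.73 RPM (1022 reads) under 5% O2 and 0.343 RPM (14 reads) under 20% O2. It passed the filter only through IV 5% O2. Slc2a12, which encodes the glucose carrier GLUT12, measured 19.6 RPM (2596 reads) under 5% O2 and 5.97 RPM (244 reads) under 20% O2, a ratio of 3.29 (interval 2.88 to 3.77). Slc5a2, the sodium-glucose carrier known from the kidney, had 11.0 and 5.77 RPM. Slc2a1 exceeded both per kb of exon in either condition. Without Slc2a1 and Slc2a3, 2 of the 5 other genes tested were at least 2-fold higher. These counts are too small to be set apart from the shares over all genes. The theca and stroma markers were higher in IV 5% O2 as well, and their part in the glucose and monocarboxylate values was not tested.

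Of 20 genes of monocarboxylate carriers and their partners, 18 were in the table and 15 tested. At least 2-fold higher in IV 5% O2 were 5 (33.3% of those tested, beside 18.7% of all genes). These were Emb, Slc16a3, Slc5a12, Slc16a7 and Slc16a11, the last pair named after their values were seen. All but Emb were below 1 RPM in IV 20% O2 and passed the filter only through IV 5% O2. At least 2-fold lower was 1 gene (6.67%, beside 9.22%). After median-ratio scaling and after quantile normalization, of 14 genes tested, 3 were higher and 2 lower. Over all genes, 1700 were then higher and 2031 lower of 14634, and 1764 higher and 1866 lower of 14705. The median log2 difference of 0.35 was close to that of all genes, 0.26. Slc16a3 encodes MCT4, which exports lactate from glycolytic cells, and measured 4.92 RPM (651 reads) under 5% O2 and 0.881 RPM (36 reads) under 20% O2. Slc5a12, a sodium-lactate carrier, had 3.90 RPM (515 reads) and 0.269 RPM (11 reads). Slc16a7, which encodes MCT2, had 278 reads under 5% O2 and 1 read under 20% O2, a ratio of 86.0 with an interval of 15.3 to 3408. Per kb of exon in IV 5% O2, Slc16a3 stood at 0.926 and Slc5a12 at 0.959 RPM against 33.5 RPM for Slc16a1. With a minimum mean of 10 RPM, which leaves both out, 1 gene of the family was apart. Slc16a10, which by sequence belongs to the family but carries aromatic amino acids, had 90.6 and 75.6 RPM. The mitochondrial pyruvate carrier, which takes pyruvate from the cytosol into the matrix, had lower values in IV 5% O2. Mpc1 measured 2.22 RPM (294 reads) under 5% O2 and 16.1 RPM (659 reads) under 20% O2, a log2 difference of -2.41, and Mpc2 had 9.83 and 16.5 RPM, a log2 difference of -0.69. The value of Mpc1 is uncertain, because 35.3% of its exon windows of 100 bases have another copy in the genome and 23.1% of its exons are shared with a gene on the other strand.

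Of 52 genes of amino acid carriers, 34 were in the table and 32 tested. At least 2-fold lower in IV 5% O2 were 9 (28.1%, against 9.22% of all genes) and at least 2-fold higher was 1 (3.13%, against 18.7%), Slc6a6, the taurine carrier, named after its value was seen, with 60.9 RPM under 5% O2 and 27.5 RPM under 20% O2. The median log2 difference was -0.60, and 24 of the 32 lay below the median gene. Without the 5 amino acid genes among the 8 transporters, 7 of 27 were at least 2-fold lower, 1 was higher and the median was -0.62. Slc7a1, which encodes the arginine and lysine carrier CAT1, measured 31.0 RPM (4104 reads) under 5% O2 and 180 RPM (7354 reads) under 20% O2, and its log2 difference of -2.50 was the largest of the family in size. It was 5.79 times as high in IV 20% O2 (interval 5.58 to 6.02), and Slc38a2 came next in the family by log2 difference. Slc36a4, a carrier of proline and tryptophan, had 3 reads in IV 5% O2 and 124 in IV 20% O2. Its ratio of 134 thus had a wide interval of 44.7 to 657. Slc36a4 passed the filter only through IV 20% O2. So did Slc38a4, named after its value was seen, with 0.953 RPM under 5% O2 and 4.16 RPM under 20% O2. Slc7a11, the cystine-glutamate exchanger and another light chain of Slc3a2, had the highest level per kb of exon among the Slc7 genes tested in both columns and had 351 RPM under 5% O2 and 426 RPM under 20% O2, a log2 difference of -0.28. Slc3a1, the heavy chain of the cystine carrier known from the kidney, had 2.34 and 4.84 RPM, with a log2 difference of -0.81, but 26.5% of its exons are shared with Prepl on the other strand. Of the other light chains that pair with Slc3a2, named after their values were seen, Slc7a8 was also lower in IV 5% O2 (1.92 against 4.43 RPM) but Slc7a7 was higher (3.47 against 2.40 RPM), so not every light chain went against the heavy chain. Slc7a2, which encodes the arginine carrier CAT2 and was also named after its value was seen, went against Slc7a1, with 105 RPM under 5% O2 and 55.1 RPM under 20% O2. The count of amino acid carriers at least 2-fold lower depended on the setting. It was 14 of 31 after median-ratio scaling and 13 of 32 after quantile normalization, with 0 higher, while the genes lower over the whole table rose as well, to 2031 of 14634 and 1866 of 14705. It was 4 of 32 with a pseudocount of 5 RPM, 5 of 22 at a minimum mean of 5 RPM, 5 of 20 at 10 RPM and 4 of 22 on division by exonic length. Over the whole table, the genes lower in these settings were 706 of 14704, 917 of 10755, 722 of 9050 and 899 of 12089. Of the oocyte markers, 3 of 12 were at least 2-fold lower and 4 lay above 0. Their median log2 difference was -0.17, against -0.60 for the amino acid carriers. The count of 3 is too small to be set apart from the share over all genes. Whether the oocyte markers bear on the amino acid carriers was not tested.

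**Figure D4:**
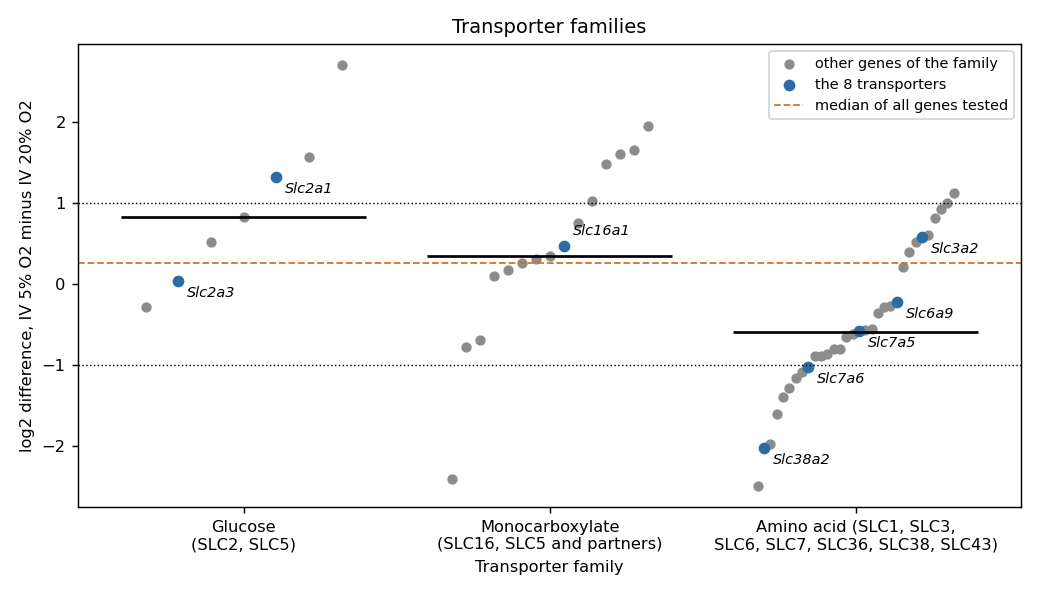
Log2 difference, IV 5% O2 minus IV 20% O2, of each gene tested in the glucose (7 genes), monocarboxylate (15) and amino acid (32) carrier families, ordered by value within a family, with the 8 transporters in blue, family medians as black bars, the median of all genes as a dashed line and 2-fold as dotted lines. The glucose family centres on 0.83 and the amino acid family on -0.60, with Slc38a2 and Slc7a6 among the 9 of the latter at least 2-fold lower and Slc3a2 among the 9 above 0.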

How the data were processed

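The RNA-seq of class IV oocytes from both oxygen conditions was used, 2 libraries each; the methylation libraries (RRBS, PBAT) were not used here. The authors aligned reads to GRCm38 with TopHat2 (version 2.0.9 in the submitters' processing notes), quantitated transcripts in SeqMonk and deposited log2 values, 1 column per condition. The file is named for RPKM and the methods describe a length correction, but undoing the log2 gives multiples of the same step for long and short genes, so they were read as RPM. How libraries were combined is not given in the sources used here. Values at 0.9 of the step were taken as no reads. The table holds 1 other value column that belongs to no sample of the series and was not used.

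Of repeated gene names (18), only the row of highest mean entered. Differences are on log2(RPM + 1), which understates the change of low genes, where the mean reached 1 RPM; 2-fold was the threshold. The planned limma test was not possible on 1 value per condition. The functions were tested on simulated reads. Exons, overlaps and coordinates came from GENCODE vM21 (GRCm38), where 16414 of 16591 rows had the exact coordinates of a gene. Windows of 50 and 100 bases, every 10 bases along exons, were counted in 22 chromosome sequences. Promoters came from RefSeq. The 8 genes, the family and marker lists and the tests were chosen with earlier results of these data known. Genes named beside them by rule were Bsg, Emb, the other heavy chain Slc3a1, the mitochondrial pyruvate carriers and, per family, the 3 highest per kb and the 3 with the largest difference; family genes outside this rule are said to be named after their values were seen. Alternatives were pseudocounts of 0.1 and 5 RPM, no filter, minimum means of 5 and 10 RPM, median-ratio scaling, quantile normalization, rows summed and division by exonic length. Computation used scipy 1.17.1, pandas 2.3.3 and numpy 2.4.6 in Python 3.11.15, with figures by matplotlib 3.10.9 and window counts by numba 0.67.0.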

Additional observations from a re-analysis of the deposited data

How the results depend on the processing

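No paired analysis was possible because the table holds 1 combined column per condition that carries no replicate number; for the same reason no library could be left out. With a pseudocount of 5 RPM, the transporters at least 2-fold lower numbered 1 in place of 2, all genes at least 2-fold higher 1202 and lower 706 (against 2753 and 1356), the monocarboxylate genes apart 2 (against 6) and the amino acid genes apart 5 (against 10). At a minimum mean of 5 RPM these were 1 transporter lower, 1691 genes higher, 2 monocarboxylate and 6 amino acid genes apart, and the median of the transporters turned to 0.12. At a minimum of 10 RPM, chosen after seeing the data, they were 1 transporter lower, 1326 genes higher and 722 lower, 1 monocarboxylate and 6 amino acid genes apart, with a median of 0.12. Division by exonic length gave 1 transporter lower, 1609 genes higher and 899 lower, 2 monocarboxylate and 4 amino acid genes apart, and a median of 0.12. These filters and the division test 6 of the 8 transporters and leave out Slc2a3 and Slc7a6, which accounts for the turn of the median. Median-ratio scaling and quantile normalization gave 1700 and 1764 genes higher and reversed Slc2a3 to -0.19 and -0.24. The lower depth of IV 20% O2 limits Slc2a3, with 89 reads there, and Slc7a6, with 233.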
